A study of Mus musculus with 61 samples.

Results

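Single oocytes and single granulosa cells taken from ovaries of mice given doxorubicin were compared with each other. The comparison holds 29 of the 61 libraries of the series, 16 labelled doxorubicin oocyte and 13 labelled doxorubicin granulosa, chosen by their labels alone. All mice were wild-type CD-1, an outbred stock, at postnatal day 5, and cells were taken 6 hours after an intraperitoneal injection. Doxorubicin is an anti-cancer drug that poisons topoisomerase II and breaks DNA, and its dose is written as 10 with a unit that is not a dose unit, so it is left uncertain. The 16 control oocytes and 16 control granulosa cells received solvent and are used here to show how the cell types differed without the drug. Each library is 1 cell amplified from full-length mRNA, no animal is named, and how cells were picked is not given in the sources used here. Each group was therefore counted as 1 sample, with no replicate check and no test of any difference below. The title of the series names JNK signalling in oocytes and loss of fertility after DNA-damaging drugs, and setting the cell types side by side shows which of them holds the transcripts of the damage response.

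An ovary of this age holds primordial and early growing follicles, in which an oocyte is enclosed by a layer of granulosa cells. The oocyte makes zona pellucida proteins, maternal factors for the embryo and secreted signals such as GDF9, while granulosa cells supply KIT ligand and express FOXL2, WT1 and the AMH receptor. DNA breaks activate the kinases ATM and ATR and, through CHEK1, CHEK2 and casein kinase 1, the p53 family. In oocytes of resting follicles the family member p63 guards the genome, and in most somatic cells p53 itself does so. Shared targets of the family stop the cell cycle (Cdkn1a), feed back on p53 (Mdm2) or start cell death (Bbc3, Pmaip1 and Bax).

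Levels below are CPM, the summed counts of a gene in a group scaled to a common total, a share of the group's mRNA that does not measure mRNA per cell. A log2 ratio is the CPM of oocytes over that of granulosa cells, so that positive values are higher in oocytes, and a value of 2 is the 4-fold difference used as the threshold. Intervals cover 95% of counting error only, since reads amplified without molecular identifiers are not independent molecules. Where a group holds fewer than 3 reads of a gene, 3 reads are used in their place. Total counts per library lay between 8899079 and 13971485 in doxorubicin oocytes and between 9144917 and 13195151 in doxorubicin granulosa cells, so depth was alike. The number of genes with at least 5 reads did not overlap, at 11138 to 13591 in oocytes and 4734 to 10970 in granulosa cells. Thinned to 5000000 counts each, the ranges were 10791 to 12678 and 3891 to 10500, which still did not overlap.

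Several libraries went against their label, and this bears on every oocyte gene below. The summed level of 24 oocyte markers was 20328 to 72332 CPM in doxorubicin oocytes, with a median of 37005. In doxorubicin granulosa libraries it ran from 571 to 53366 CPM, with a median of 12112. The summed granulosa markers were 17.9 to 3154 CPM in oocytes, with a median of 88.1, and 913 to 10938 CPM in granulosa libraries, with a median of 2518. In 8 of the 13 doxorubicin granulosa libraries (1, 2, 4, 6, 7, 9, 10 and 12) the oocyte markers summed to more than the granulosa markers, as they did in 6 of 16 control granulosa libraries, whereas no oocyte held more granulosa than oocyte markers. In 5 of 16 doxorubicin oocytes (5, 9, 10, 11 and 12) the granulosa markers reached at least 200 CPM. Values are given with and without the 8 libraries where it matters, and since that choice reads the oocyte markers, it sets part of their value. Markers of other cells also stood out in single granulosa libraries, namely stroma in library 13 at 9759 CPM, red blood cells in library 15 at 33378 CPM, steroidogenic markers in library 8 at 6277 CPM and surface epithelium in library 6 at 1453 CPM. The part of these cells in the results was not tested.

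**Figure D1:**
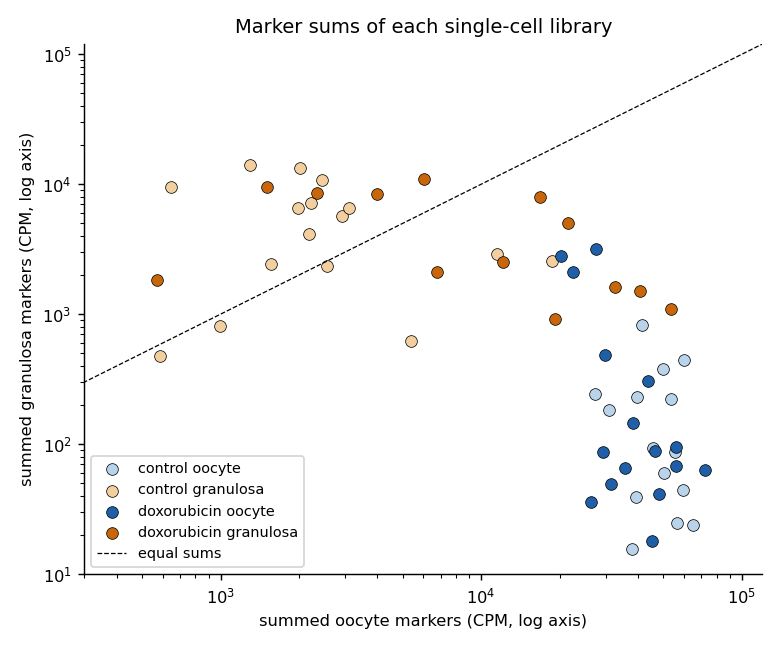
Summed granulosa markers against summed oocyte markers of each library, both in CPM on log axes, with 1 point per cell and the dashed line marking equal sums. All doxorubicin oocytes lie below the line between 20328 and 72332 CPM of oocyte markers, and 8 of the 13 doxorubicin granulosa libraries lie below it too.

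The stretches upstream of 4 genes are shown because they stand for the patterns described below. Zp3, the sperm receptor of the zona, and Sohlh2, a germ cell transcription factor, mark oocytes, and they differ in how far granulosa libraries also held them after the drug. Cdkn1a, which encodes the cell cycle inhibitor p21, and Plk2, a polo-like kinase, were the only genes that met the rule for damage-induced genes in both cell types. The stretches come from RefSeq on build GRCm38.p6 and cover the 250 bases before a transcription start, without bases that any GENCODE exon overlaps. Capitals mark E-boxes (CANNTG, the motif of basic helix-loop-helix factors such as FIGLA and SOHLH2) in the first pair and in Plk2, and p53 half-sites, which are 10 bases long and are given by name only, in Cdkn1a. Both strands were searched, no 2 matches overlapped, and TAATTG, a NOBOX motif, was not in these windows.
Zp3, chr5:135979855-135980098, plus strand: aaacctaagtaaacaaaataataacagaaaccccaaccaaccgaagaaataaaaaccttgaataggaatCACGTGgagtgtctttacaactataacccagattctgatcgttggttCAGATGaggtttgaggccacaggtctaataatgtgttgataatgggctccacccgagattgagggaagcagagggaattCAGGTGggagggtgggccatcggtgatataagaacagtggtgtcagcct
Sohlh2, chr3:55181794-55182027, plus strand: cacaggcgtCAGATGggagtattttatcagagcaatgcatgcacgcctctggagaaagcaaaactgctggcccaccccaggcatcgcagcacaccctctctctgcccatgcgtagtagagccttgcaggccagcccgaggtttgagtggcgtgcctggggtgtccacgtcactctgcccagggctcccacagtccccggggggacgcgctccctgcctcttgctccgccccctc
Cdkn1a, chr17:29090729-29090975, plus strand: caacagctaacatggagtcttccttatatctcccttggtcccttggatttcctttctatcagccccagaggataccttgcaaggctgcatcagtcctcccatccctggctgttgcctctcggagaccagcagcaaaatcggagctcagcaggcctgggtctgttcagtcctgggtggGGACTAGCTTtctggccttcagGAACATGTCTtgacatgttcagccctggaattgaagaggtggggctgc
Plk2, chr13:110394794-110395043, plus strand: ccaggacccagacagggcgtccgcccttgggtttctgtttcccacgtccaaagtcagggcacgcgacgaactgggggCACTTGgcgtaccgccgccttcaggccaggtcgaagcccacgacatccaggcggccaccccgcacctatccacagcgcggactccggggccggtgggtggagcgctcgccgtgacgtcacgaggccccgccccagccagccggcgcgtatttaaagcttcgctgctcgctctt
The Zp3 stretch holds 3 E-boxes and the stretches of Sohlh2 and Plk2 hold 1 each. An E-box is present in the same 250-base window of 66.2% of 32851 RefSeq promoters and TAATTG in 7.2%. The Cdkn1a stretch holds 2 p53 half-sites, which 7.1% of promoters hold at least once. These matches describe the letters and show no binding.

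Across all genes the cell types remained far apart after the drug. Of 12428 genes that reached 5 CPM in oocytes or in granulosa cells, 1779 (14.3%) were at least 4-fold higher in oocytes and 2056 (16.5%) at least 4-fold higher in granulosa cells. Among cells of the control groups the same counts were 2025 (16.4%) and 2439 (19.7%) of 12373. The median log2 ratio of all genes was 0.02 after the drug, with quartiles of -1.21 and 1.15, and -0.03 in controls, with quartiles of -1.44 and 1.26. In 192 genes (1.54%) every doxorubicin oocyte was above every doxorubicin granulosa library, against 402 (3.25%) in controls. The reverse held for 24 genes (0.193%), against 56 (0.453%) in controls. Across 8342 genes that reached 5 CPM in each of the 4 groups, the contrasts with and without the drug had a Pearson r of 0.75 and a Spearman rho of 0.71, and 77.3% lay on the same side of 0. Genes are not independent replicates, so this is a description. The split depends on how cells are combined. When the median of log2(CPM + 1) over cells replaced the sum, 5461 genes were 4-fold higher in oocytes and 618 in granulosa cells, a setting in which a gene read in fewer than most granulosa libraries has a median near 0.

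**Figure D2:**
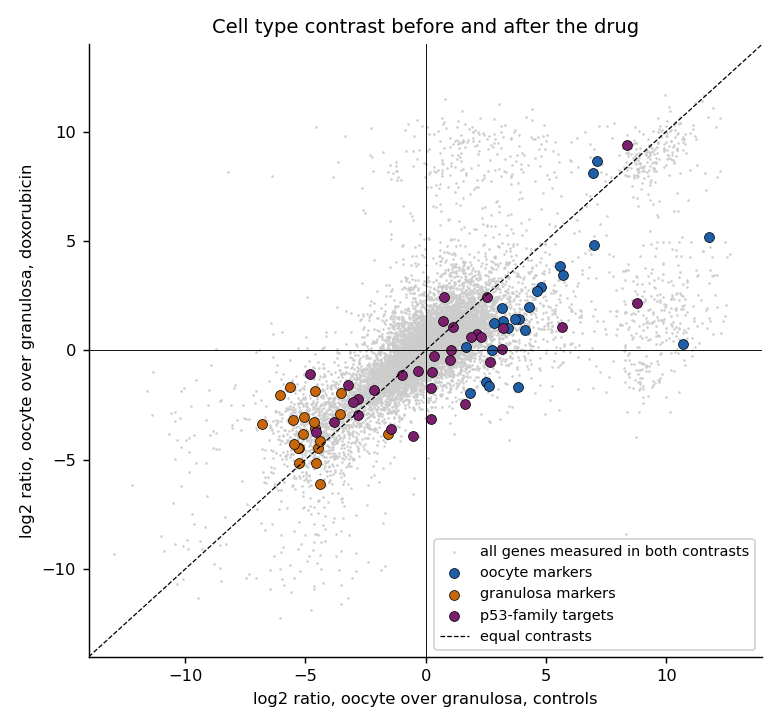
Log2 ratio of oocytes over granulosa cells after doxorubicin against the same ratio in controls, with 1 point per gene and the dashed line marking equal contrasts. Oocyte markers lie mostly below the line, with a median of 1.39 after the drug and 3.86 in controls, while granulosa markers have medians of -3.80 and -5.07.

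The contrast of the oocyte markers was weaker after the drug. Their median log2 ratio was 1.39 over 24 genes, against 3.86 over 23 genes in controls. At least 4-fold higher in oocytes were 8 of 24, against 21 of 23 in controls, beside 14.3% and 16.4% of all genes. Over the 23 genes measured in both, the contrast changed by a median of -2.28, beside 0.05 over all genes. In 14 of these 23 it was at least 4-fold lower, beside 9.81% of all 11533 genes measured in both contrasts, of which 8.94% had a contrast at least 4-fold higher. Between doxorubicin and control oocytes the same genes differed by a median of -0.18, and between doxorubicin and control granulosa libraries by 2.01, so most of the difference lay on the granulosa side. Without the libraries that went against their label the median contrast was 3.70 after the drug. Its change from controls was -1.15, with the 6 control granulosa libraries against their label left out as well. In 5 of the 24 genes every oocyte was above every granulosa library, against 12 of 23 in controls, beside 1.54% and 3.25% of all genes.

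The zona pellucida genes encode the proteins of the oocyte's coat. Zp2 was measured in doxorubicin oocytes at 1457, 5320 and 9947 CPM (lowest, median and highest cell) and in doxorubicin granulosa libraries at 5.44, 582 and 2233 CPM. Oocytes were higher here, as 14 of 16 lay above the highest granulosa library, though the ranges overlapped. The group levels of Zp2 were 5704 and 755 CPM, a log2 ratio of 2.92 (2.91 to 2.93), against 4.79 in controls. Zp3 was lower in contrast, at 463, 2289 and 7155 CPM in oocytes and 0.468, 655 and 5098 CPM in granulosa libraries, where only 1 oocyte lay above all of them. The log2 ratio of Zp3 was 0.94, against 4.15 in controls, and 3.68 without the 8 libraries. Zp1 lay between, at a log2 ratio of 1.42.

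Among the secreted factors Gdf9 had a direction that differed from controls. Gdf9, the growth factor by which oocytes act on granulosa cells, was measured in doxorubicin oocytes at 153, 500 and 1172 CPM and in doxorubicin granulosa libraries at 0.281, 858 and 8052 CPM. Its spread among granulosa libraries was far wider than among oocytes, with 5 libraries above every oocyte and 3 below every oocyte. Group levels were 564 and 1817 CPM, a log2 ratio of -1.69 (-1.70 to -1.68), whereas control oocytes held 964 CPM and control granulosa cells 68.1 CPM, a ratio of 3.82. The 4 libraries highest in Gdf9 (1, 6, 4 and 12, at 8052, 5271, 3554 and 2148 CPM) were among the 8 that went against their label, and without those 8 the log2 ratio was 1.57. Bmp15, a partner of Gdf9, was read at 5 or more reads in 15 of 16 oocytes and 2 of 13 granulosa libraries, and its log2 ratio of 0.27 became 2.16 without granulosa library 10. Oosp1, an oocyte-secreted protein, was low in oocytes, at 3.85 CPM, and its log2 ratio of -2.96 was -1.25 without granulosa library 1, 2.71 without the 8 libraries and 0.85 by medians over cells.

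The 5 transcription factors that switch on the oocyte programme had a median log2 ratio of 2.70, and all 5 were higher in oocytes. Lhx8, a homeobox factor of early oocytes, was measured in doxorubicin oocytes at 95.3, 213 and 339 CPM and in doxorubicin granulosa libraries at 0.00, 0.165 and 3.42 CPM. The groups did not overlap, and the log2 ratio was 8.10 (7.83 to 8.38), against 6.95 in controls. Sohlh2 was measured at 77.5, 232 and 308 CPM and at 0.00, 0.185 and 68.1 CPM, again without overlap, and its log2 ratio of 5.17 stood against 11.78 in controls. Nobox, a homeobox factor required for follicle growth, was measured at 1100, 1566 and 2404 CPM and at 0.468, 106 and 675 CPM, with a log2 ratio of 2.70 against 4.62. Sohlh1 (1.92) and Figla (1.35), a basic helix-loop-helix factor that drives the zona genes, were closer, and in Figla the highest granulosa library, at 823 CPM, was above the highest oocyte, at 742 CPM.

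The 5 genes of germline RNA control had a median of 3.45. Ddx4, the germ cell helicase also called VASA, was measured in doxorubicin oocytes at 177, 244 and 448 CPM and in doxorubicin granulosa libraries at 0.00, 0.208 and 3.03 CPM. The groups did not overlap, and granulosa libraries 1, 4 and 6, which held the most oocyte marker transcripts, had 0.727, 2.23 and 0.00 CPM of it. Its log2 ratio of 8.67 (8.38 to 8.98) was the highest among the oocyte markers, against 7.12 in controls. Cpeb1, which controls stored mRNAs, had a ratio of 4.80 without overlap, and Dazl, a germ cell RNA-binding protein, of 3.45. Zar1, a maternal factor, was measured at 14.4, 220 and 699 CPM in oocytes and 16.4, 485 and 3523 CPM in granulosa libraries, a log2 ratio of -1.46 against 2.50 in controls, and 1.25 without the 8 libraries.

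**Figure D3:**
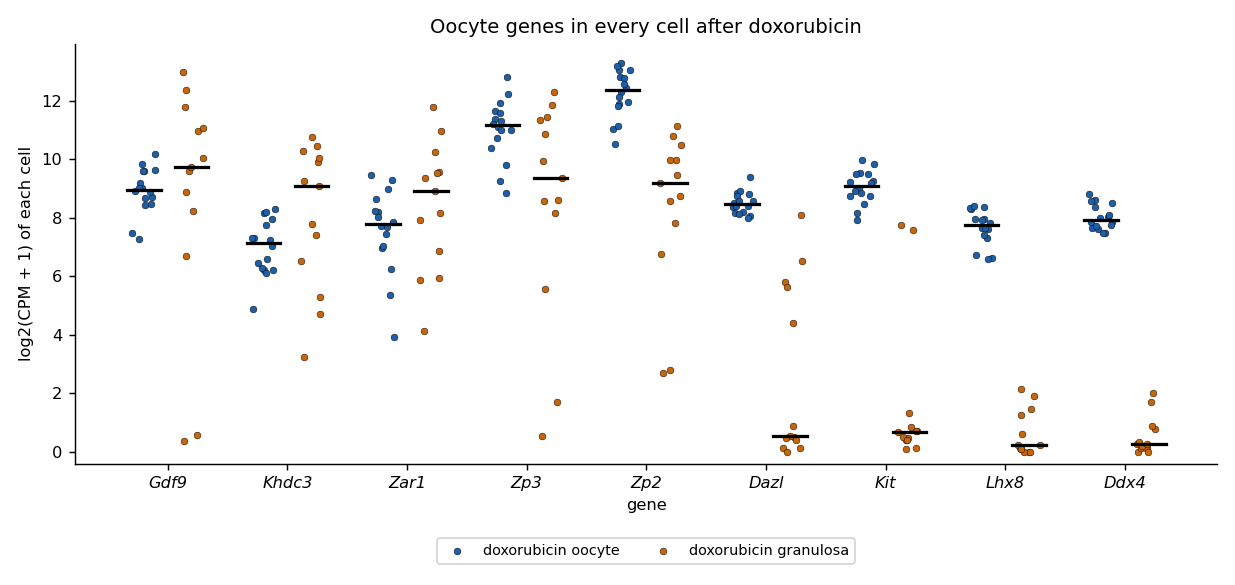
Oocyte genes as log2(CPM + 1) in each of 16 doxorubicin oocytes and 13 doxorubicin granulosa libraries, with 1 point per cell and a bar at the median. The groups are apart for Ddx4, Lhx8 and Kit, and they overlap for Gdf9, Khdc3 and Zar1, where granulosa medians of 858, 541 and 485 CPM are above oocyte medians of 500, 140 and 220 CPM.

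The maternal complex beneath the oocyte surface and oocyte chromatin factors were split as well. Nlrp5, also called MATER, was measured at 76.3, 3075 and 7790 CPM in oocytes and 0.468, 141 and 954 CPM in granulosa libraries, a log2 ratio of 3.85. Padi6 (1.97) and Tle6 (1.00) of the same complex were lower in contrast, and Ooep had 2640 and 2394 CPM, a ratio of 0.14 that was 2.45 without the 8 libraries and -0.10 by medians over cells. Khdc3 was measured at 28.4, 140 and 318 CPM in oocytes and 8.41, 541 and 1745 CPM in granulosa libraries, of which 7 lay above every oocyte. Its log2 ratio was -1.93 (-1.95 to -1.91), against 1.86 in controls. H1f8, the oocyte linker histone, had -1.63 against 2.62, and Npm2, a histone chaperone, had 461 and 462 CPM. In 6 genes, Gdf9, Oosp1, Khdc3, Zar1, Npm2 and H1f8, the sign of the ratio differed without the 8 libraries, and 20 of the 24 markers were then at least 4-fold higher in oocytes.

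Sets chosen from the control contrast itself gave the same kind of description. Of 190 genes with at least 100 CPM in control oocytes, 10 times the level of control granulosa cells and 5 or more reads in at least 75% of control oocytes, the median log2 ratio was 4.40 in controls, by choice, and 2.35 after the drug, with 110 at least 4-fold higher in oocytes and 5 below 0. The 212 genes chosen the same way for granulosa cells had -4.52 in controls and -3.49 after the drug. Chosen on the doxorubicin contrast, 91 genes were oocyte-enriched, and 51 of them were in the control set, which is 26.8% of that set and 56.0% of the 91. Of 142 granulosa-enriched genes after the drug, 99 were in the control set, 46.7% of it and 69.7% of the 142. The highest values of a contrast are read lower on another one by the choice alone, so nothing is drawn from these medians.

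Granulosa markers stayed on the granulosa side. Of 21 measured, all had a negative log2 ratio, except Irx3 by medians over cells, and the median was -3.80, against -5.07 in controls. At least 4-fold higher in granulosa cells were 18 of 21, beside 16.5% of all genes. In controls 20 of 21 were so, beside 19.7% of all genes. Wt1, a transcription factor of the gonadal soma, was measured in doxorubicin oocytes at 0.00, 0.0823 and 10.6 CPM and in doxorubicin granulosa libraries at 0.104, 91.3 and 450 CPM, with 12 of 13 above every oocyte. Its log2 ratio was -6.13 (-6.28 to -5.98). Amhr2, the receptor for AMH, was read in all 13 granulosa libraries, at 24.0, 440 and 1283 CPM, and had a ratio of -5.13. Foxl2, the factor that keeps granulosa identity, was present with 5 or more reads in 10 of 13 granulosa libraries and 6 of 16 oocytes, with a ratio of -4.44. Inha, the alpha subunit of inhibin, was measured at 0.213, 21.0 and 2489 CPM in oocytes and 2.31, 620 and 7373 CPM in granulosa libraries, and its ratio of -3.02 was -7.16 without the oocytes that held at least 200 CPM of granulosa markers. Without those oocytes the median of the list was -5.93. The 9 stroma markers had a median of -1.94, against -4.11 in controls, and -0.97 without granulosa library 13.

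The genes with the largest contrasts were ranked by the smallest ratio over leaving out each cell, which does not require that every cell holds them. Of 16 doxorubicin oocytes, 12 had 5 or more reads of Galnt6, 13 of Nlrp4c, 14 of Sgsm1 and 15 of Nhej1 and of Rrp12. All 16 had them for Syt16, Mageb4, Dgat2, Mageb16 and Slc24a2. Those higher in oocytes had almost no reads in doxorubicin granulosa libraries. Galnt6, a glycosyltransferase, had 112 CPM in doxorubicin oocytes and 5 reads over all doxorubicin granulosa libraries, a log2 ratio of 11.65 (10.43 to 13.27). Nhej1, a factor of end joining, had 59.6 CPM and 3 reads, a ratio of 11.47 with a counting interval of 9.93 to 13.75, against 0.80 in controls, where granulosa cells held 16.4 CPM. Sgsm1 had 67.8 CPM against 1 read and Nlrp4c 55.6 CPM against 2 reads. Syt16, Mageb4, Dgat2, Mageb16, Rrp12 and Slc24a2 followed with ratios from 10.31 to 11.29. Like Nhej1, some were also read in control granulosa cells, where the highest cell held 326 CPM of Dgat2, 412 of Rrp12 and 93.9 of Mageb4. No control granulosa cell held more than 0.225 CPM of Galnt6, Sgsm1, Nlrp4c, Syt16, Mageb16 or Slc24a2. Mageb16, a gene of the MAGE family, was measured at 41.5, 78.7 and 128 CPM in oocytes and 0.00, 0.00 and 0.311 CPM in granulosa libraries, so every oocyte was above every library.

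On the granulosa side Alcam, a cell adhesion molecule, had 0.224 CPM in oocytes and 50.5 CPM in granulosa cells, a log2 ratio of -7.82 against -3.84 in controls. Gatm, the first enzyme of creatine synthesis, was measured at 0.0748, 7.68 and 55.4 CPM in oocytes and 1.57, 894 and 3544 CPM in granulosa libraries, with 12 of 13 above every oocyte and a ratio of -6.72. Greb1l (-6.94), Dhrs7 (-6.18), Kctd14 (-6.19), Mmp23 (-6.18), Wt1 (-6.13), Irgm1 (-6.18), Gucy1a1 (-5.88) and Cst12 (-6.17) made up the rest. Of these 10 genes, the contrast in controls lay between -5.56 for Irgm1 and -3.84 for Alcam, so all were granulosa genes without the drug too.

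Targets of the p53 family were divided by gene and not by cell type as a whole. Of 37 measured, 5 were at least 4-fold higher in oocytes and 9 at least 4-fold higher in granulosa cells, and 15 had a ratio above 0, beside 14.3%, 16.5% and 50.4% of all genes. In controls 9 of 32 were at least 4-fold higher in oocytes and 8 in granulosa cells, beside 16.4% and 19.7% of all genes. The median log2 ratio was -0.93, against 0.54 over 32 genes in controls. It was 0.62 with the median over cells in place of the sum, where Plk3, Ppm1d, Zmat3, Pmaip1, Siva1, Fdxr and Rrm2b were on the other side of 0. It was -0.78 without the 8 libraries, where Trp53inp1, Pmaip1, Fas and Bid were on the other side. The direction of the list as a whole therefore depends on the setting, and single genes are given below.

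Of 7 arrest genes, 4 were at least 4-fold higher in granulosa cells and 1 in oocytes, beside 16.5% and 14.3% of all genes. In controls 4 of 6 were so in granulosa cells and 1 in oocytes, beside 19.7% and 16.4% of all genes. The median of the arrest genes was -2.95, against -2.47 in controls. Cdkn1a was measured in doxorubicin oocytes at 7.90, 115 and 289 CPM and in doxorubicin granulosa libraries at 0.577, 649 and 4606 CPM. Of the 13 granulosa libraries 11 were above every oocyte, and libraries 1 and 4, at 7.89 and 0.577 CPM, were below all oocytes, with 53366 and 32605 CPM of oocyte markers. Group levels were 130 and 1161 CPM, a log2 ratio of -3.15 (-3.17 to -3.13), which ran from -3.30 to -2.70 with each cell left out and was -2.33 without the 8 libraries. In controls the levels were 15.7 and 13.5 CPM, a ratio of 0.21 that ran from 0.07 to 1.41 with each cell left out and was -0.48 without the libraries against their label. Doxorubicin over control came to 3.06 on the log2 scale in oocytes and 6.42 in granulosa cells. Among the 11 oocytes with under 200 CPM of granulosa markers, Cdkn1a stood at 89.6 CPM and the ratio to granulosa cells was -3.69.

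Plk2 was measured in doxorubicin oocytes at 0.00, 8.37 and 367 CPM and in doxorubicin granulosa libraries at 88.4, 446 and 2307 CPM. Granulosa libraries were higher, with 8 above every oocyte, and the log2 ratio was -3.71, against -4.54 in controls. Btg2, an antiproliferative gene, was measured at 7.52, 72.1 and 259 CPM and at 57.0, 696 and 3874 CPM, with 11 granulosa libraries above every oocyte. Its ratio of -3.27 differed little from -3.79 in controls, and its doxorubicin over control values were 0.25 in oocytes and -0.27 in granulosa cells. Gadd45a, a stress-induced growth arrest gene, had a ratio of -1.79, and Plk3, a polo-like kinase, had -2.95 by sums but 2.79 by medians over cells. Sfn, which encodes 14-3-3 sigma, went the other way, at 29.0 CPM in oocytes and 7 reads over all granulosa libraries, a ratio of 9.21 (8.17 to 10.53), which was 8.05 in the oocytes with few granulosa marker transcripts.

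Of the feedback genes Mdm2, the ubiquitin ligase that removes p53, was measured in doxorubicin oocytes at 75.2, 590 and 1898 CPM and in doxorubicin granulosa libraries at 0.462, 215 and 774 CPM. Oocytes were higher by median and 6 lay above every granulosa library, though the groups overlapped. The log2 ratio was 1.33 (1.31 to 1.35), against 0.71 in controls, and it lay between 1.11 and 1.54 with each cell left out. Ccng1, a cyclin induced by p53, was measured at 20.2, 101 and 237 CPM in oocytes and 0.495, 372 and 852 CPM in granulosa libraries, 8 of which were above every oocyte. Its ratio of -1.70 stood against 0.23 in controls and was -1.30 without the 8 libraries. Phlda3, a repressor of AKT signalling, had -1.60, and Ppm1d, the phosphatase WIP1, had 53.8 and 63.3 CPM, near equal levels.

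**Figure D4:**
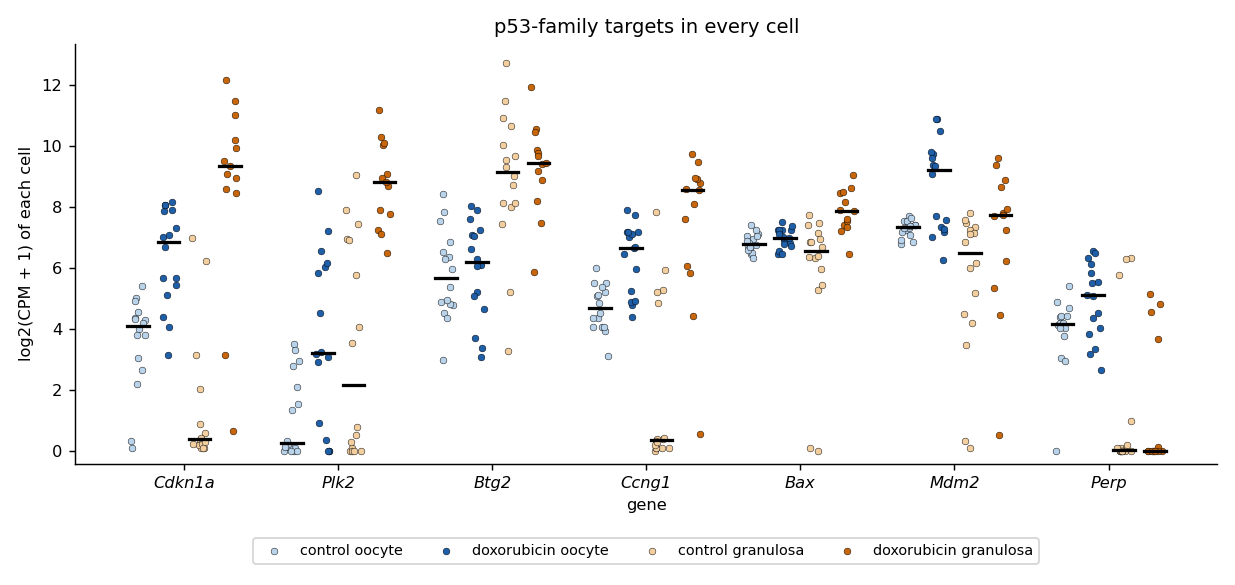
Targets of the p53 family as log2(CPM + 1) in each cell of the 4 groups, with 1 point per cell and a bar at the median. Cdkn1a has medians of 115 and 649 CPM in doxorubicin oocytes and granulosa libraries, and Mdm2 has 590 and 215 CPM.

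Death genes were found on both sides. Bax, the pore-forming effector, was measured in doxorubicin oocytes at 87.2, 127 and 180 CPM and in doxorubicin granulosa libraries at 87.7, 230 and 525 CPM, with 9 libraries above every oocyte. It was read evenly among oocytes, and its log2 ratio was -1.0 (-1.02 to -0.97), against 0.25 in controls. Tnfrsf10b, a death receptor, had 1.56 and 23.6 CPM (-3.92), and Apaf1, the core of the apoptosome, had 7.37 and 89.0 CPM, a ratio of -3.59 that was -1.67 without granulosa library 1. Perp, a membrane protein of p53-dependent death, was measured at 5.39, 33.6 and 93.4 CPM in oocytes and 0.00, 0.00 and 34.7 CPM in granulosa libraries, a ratio of 2.45, and Pidd1, a scaffold for caspase 2, had 2.18, which was 1.56 without oocyte 4 and 3.33 without granulosa library 13. Bbc3, which encodes PUMA, had a ratio of 0.39 that was 1.82 without the 8 libraries. Pmaip1, which encodes NOXA, had a ratio of -1.28 that was 0.75 without granulosa library 6 and 2.36 by medians over cells.

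Targets in metabolism and repair were divided as well. Gls2, a mitochondrial glutaminase, had 13.9 CPM in oocytes and no read in any granulosa library, which makes its log2 ratio at least 9.37 with 3 reads over the group as the floor. Tigar, which lowers glycolysis, was measured in oocytes at 10.3, 27.4 and 40.6 CPM and had a ratio of 2.43. Sesn2, a stress-induced inhibitor of TOR signalling, was measured at 0.0716, 44.6 and 307 CPM in oocytes and 0.165, 106 and 1513 CPM in granulosa libraries, a ratio of -2.23 that was -1.74 without granulosa library 9. Fdxr, ferredoxin reductase, had -2.36 by sums, -1.61 without granulosa library 1 and 1.07 by medians over cells. Polk, a translesion polymerase, had 16.3 and 88.1 CPM, a ratio of -2.43 that was -1.87 without granulosa library 1. Its control ratio of 1.66 rested on control granulosa cell 16, the 1 control granulosa cell with 5 or more reads. The excision repair genes Ddb2 (1.04), Ercc5 (1.09) and Xpc (0.59) were higher in oocytes.

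Genes were called damage-induced where doxorubicin cells held at least 50 CPM, with 5 or more reads in at least 75% of them. Such genes also had at least 4 times the level of control cells with any cell left out. The name stands for this rule only, and the cause of the difference was not tested. By sums alone, 264 of 11119 genes (2.37%) were at least 4-fold higher in doxorubicin than in control oocytes, and 1314 of 12194 (10.8%) in granulosa cells. The full rule was met by 18 genes in oocytes (0.162%) and 57 in granulosa cells (0.467%), and Cdkn1a and Plk2 met it in both. Of the 18, 7 were at least 4-fold higher in doxorubicin oocytes than in doxorubicin granulosa cells, beside 14.3% of all genes. Another 3 (Plk2, Cdkn1a and Sesn2) were at least 4-fold lower, beside 16.5% of all genes, and 8 lay between. The 18 were chosen for a high level in doxorubicin oocytes, and this choice sets part of the split. Among the 7 held by oocytes were Traf3, Pisd-ps1, Myo18a, D630023F18Rik, 9930012K11Rik and Prickle3. D630023F18Rik had a ratio of 2.90 that was 4.56 without granulosa library 1, and Prickle3 one of 2.09 that was 1.82 without oocyte 4. Traf3, an adaptor of TNF receptor and innate immune signalling, had 66.5 and 6.38 CPM, a ratio of 3.38. Pisd-ps1, a pseudogene whose reads may be shared with its parent gene, had 52.3 and 6.26 CPM.

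Among the 8 between, Fermt3, the kindlin of blood cells, was higher after the drug in both cell types by sums, by 7.37 on the log2 scale in oocytes and 10.94 in granulosa cells. It had 5 or more reads in 14 of 16 doxorubicin oocytes but in 3 of 13 granulosa libraries, so 242 and 87.1 CPM rest on unequal numbers of cells, and without the 8 libraries the granulosa level was 0.0520 CPM. Ifitm10, a member of the interferon-induced transmembrane family, had 220 and 68.1 CPM and was read in 15 of 16 oocytes and 7 of 13 libraries. Wnt4, a signal of the female gonad, had 52.0 and 201 CPM. Ly6g6e, Ttc23, S100a16, Fcgbp and Fbxw4 had ratios between 0.59 and 1.48. Fcgbp was past 4-fold without granulosa library 1 (4.85), as were Fbxw4 without library 7 (3.06) and Fermt3 without library 9 (2.87), while Wnt4 was -2.57 without oocyte 5.

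Of the 57 genes that met the rule in granulosa cells, 11 were at least 4-fold higher in doxorubicin granulosa cells than in doxorubicin oocytes. Over all genes that share was 16.5%. The other 46 lay between, and 0 were held by oocytes, where 14.3% of all genes were at least 4-fold higher. The 57 were chosen for a high level in doxorubicin granulosa cells, and this choice sets part of the split. In controls 50 of the 57 had been higher in oocytes and 38 at least 4-fold higher, beside 16.4% of all genes, and Zp3, Tle6, Gdf9, Oas1c, Tcl1, Mael, H1f8 and Zar1 were among the 46. Tcl1, an oocyte coactivator of AKT, was measured in doxorubicin granulosa libraries at 0.974, 789 and 3893 CPM and in doxorubicin oocytes at 672, 989 and 1924 CPM, a log2 ratio of 0.12 against 2.97 in controls and 3.61 without the 8 libraries. The part of the oocyte marker transcripts of the granulosa libraries in the 46 was not tested. The 46 also held the p53 targets Ccng1, Phlda3 and Trp53inp1, of which Ccng1 kept a ratio of -1.30 without the 8 libraries. Among the 11 were Alcam, Plk2, Cdkn1a, Polk and Slc19a2, a thiamine transporter that is a known p53 target, at 13.3 and 131 CPM. Of the 11, 2 were globin genes, of which Hbb-bs had a ratio of -7.64 that was -3.51 without granulosa library 15.

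Genes that sense and repair DNA damage were mostly higher in oocytes. Of 23 measured, 18 had a ratio above 0, beside 50.4% of all genes, with a median of 1.30 against 0.86 in controls. At least 4-fold higher were 9 in oocytes and 1 in granulosa cells, beside 14.3% and 16.5% of all genes. In controls 16 of 22 had a ratio above 0, with 4 at least 4-fold higher in oocytes and 3 in granulosa cells. Trp63, the gene of p63, was measured in doxorubicin oocytes at 40.9, 82.6 and 147 CPM and in doxorubicin granulosa libraries at 0.00, 0.109 and 33.6 CPM. The groups did not overlap, and 9 of 13 granulosa libraries had under 5 reads. Its log2 ratio was 4.22 (4.11 to 4.33), against 2.88 in controls, and 5.53 without granulosa library 8. Trp73, the gene of p73, had 49.0 CPM in oocytes and 3 reads in granulosa libraries, a ratio of 11.19 with a counting interval of 9.64 to 13.47, while control oocytes held 1.56 CPM. Trp53 was measured at 24.9, 70.3 and 205 CPM in oocytes and 0.00, 173 and 647 CPM in granulosa libraries, a ratio of -1.26 against -1.93 in controls.

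All 7 kinases were on the oocyte side, as were 6 of 7 in controls. Prkdc, the catalytic subunit of DNA-PK, was measured at 22.4, 44.0 and 127 CPM in oocytes and 0.00, 0.00 and 19.3 CPM in granulosa libraries, without overlap, and had a log2 ratio of 4.27 against 2.0 in controls. Atr, the kinase of stalled forks and resected breaks, had 240 and 17.2 CPM, a ratio of 3.81. Chek1 had 2.72 and Chek2, the kinase upstream of p63 in oocytes, 1.00. Atm had 2.06, which was 1.90 without oocyte 12 and 4.11 without granulosa library 7. Csnk1a1, a casein kinase, had 195 and 184 CPM, a ratio of 0.09 that was -0.03 without granulosa library 14, so its levels were near equal. Brca1, which acts in repair of breaks by recombination, had a ratio of 3.20 that was 6.43 without granulosa library 7. Of the drug's own targets, Top2b had 21.4 and 125 CPM, a ratio of -2.55, and Top2a had -1.19, which was 2.53 without granulosa library 16, the library that held 1514 CPM of Top2a.

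The side of the JNK pathway as a whole depended on the setting. Of 17 genes measured, 10 had a ratio above 0, 4 were at least 4-fold higher in oocytes and 1 (Spag9, a JNK scaffold, -2.96) in granulosa cells, beside 50.4%, 14.3% and 16.5% of all genes. The median was 0.16 against 0.15 in controls. It was -0.64 with a minimum of 20 CPM, 0.94 without the 8 libraries and 2.93 by medians over cells. Of the JNK genes, Mapk8 was measured in doxorubicin oocytes at 2.58, 10.2 and 28.9 CPM and in doxorubicin granulosa libraries at 0.00, 0.00 and 219 CPM. Its log2 ratio of -1.08 was 0.75 without granulosa library 9, so no direction is given. Mapk9 had 82.3 and 67.4 CPM, a ratio of 0.29 as in controls. Mapk10 was read in 11 of 16 oocytes and had 5 reads in all granulosa libraries together, a ratio of 9.10 (7.88 to 10.72), against 0.07 in controls, where granulosa cells held 17.4 CPM. Map3k9, a kinase upstream of JNK, had 25.4 CPM in oocytes and 3 reads in granulosa libraries.

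AP-1 genes, which JNK acts upon, were listed together with other immediate early genes (Egr1, Ier2, Dusp1 and Myc). Of the 12 measured, 11 were at least 4-fold higher in doxorubicin granulosa cells, beside 16.5% of all genes, and 11 were so in controls. The exception was Atf2, at -0.13 and, in controls, 0.06. The median was -3.50 against -4.55 in controls. Jun was measured in doxorubicin oocytes at 0.00, 16.3 and 278 CPM and in doxorubicin granulosa libraries at 9.03, 1529 and 5820 CPM, with 12 of 13 libraries above every oocyte. Its log2 ratio was -4.87 (-4.89 to -4.84), against -4.70 in controls. Fos was measured at 19.3, 58.7 and 1001 CPM and at 740, 2808 and 6623 CPM, a ratio of -3.72, and Egr1, an immediate early zinc finger factor, had -3.99. Dusp1, a phosphatase of JNK and p38, had -2.62 and rested largely on granulosa library 13, without which it was -0.60.

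Among BCL2 family members and caspases not counted as p53 targets, 4 of 12 were at least 4-fold higher in granulosa cells and 1 in oocytes, beside 16.5% and 14.3% of all genes. The median was -1.27, against -1.23 in controls and 0.18 by medians over cells. Bcl2l11, which encodes BIM, was the 1, at 11.6 and 2.82 CPM, a log2 ratio of 2.04 against -1.16 in controls. It was 1.91 without granulosa library 4, 3.42 without granulosa library 13 and 0.90 without the 8 libraries. Casp8, the initiator of death receptor signalling, had 4.01 and 90.0 CPM (-4.49). Casp2, a caspase long studied in oocyte death, was measured at 36.0, 79.5 and 203 CPM in oocytes and 0.00, 0.162 and 229 CPM in granulosa libraries, a ratio of 1.08 that was -0.22 without the 8 libraries. Mcl1, a survival gene, had -1.61.

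Of 18 genes by which the cells communicate, 2 (Kit and Cdh1) were at least 4-fold higher in oocytes and 6 in granulosa cells, beside 14.3% and 16.5% of all genes. The median was -1.75 against -0.25 in controls, but -0.36 without the 8 libraries and -0.24 by medians over cells. Kit, the receptor on oocytes, was measured in doxorubicin oocytes at 241, 549 and 1002 CPM and in doxorubicin granulosa libraries at 0.0824, 0.618 and 215 CPM, without overlap. Its log2 ratio was 4.30 (4.25 to 4.34), against 9.54 in controls and 10.44 without the 8 libraries. Kitl, its ligand, was measured at 0.00, 0.630 and 33.9 CPM in oocytes and 0.00, 28.9 and 618 CPM in granulosa libraries, a ratio of -4.29. Gja1, the gap junction protein among granulosa cells, had -3.22, while Gja4, its counterpart on the oocyte, had 301 and 335 CPM, a ratio of -0.16 against 3.20 in controls, 3.45 without the 8 libraries and 1.31 by medians over cells. The cadherins were opposite, with Cdh1 at 6.45, which was 9.88 without granulosa library 6, and Cdh2 at -4.94. Of the Notch pair, the ligand Jag1 had 1.30, which was 2.39 without granulosa library 7, and the receptor Notch2 -2.82. Bmpr1a, a BMP type I receptor, had -2.36.

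Lists of metabolism and the cell cycle had medians nearer 0 by sums, at -0.94 for 14 glycolysis genes. Aldoa, a glycolytic aldolase, was measured in doxorubicin oocytes at 224, 427 and 663 CPM and in doxorubicin granulosa libraries at 743, 1438 and 2452 CPM, so every granulosa library was above every oocyte, with a log2 ratio of -1.83 against -1.42 in controls. Ldha, lactate dehydrogenase A, had 64.5 and 790 CPM (-3.61). In all, 3 of the 14 genes were at least 4-fold higher in granulosa cells, beside 16.5% of all genes, and 6 of 14 were so in controls. Of 15 genes of cholesterol synthesis the median was 0.11, which was -0.26 without the 8 libraries and 2.12 by medians over cells. Fdft1, squalene synthase, was measured at 889, 1137 and 1651 CPM in oocytes and 3.12, 262 and 888 CPM in granulosa libraries, a ratio of 1.97 without overlap. Of 15 proliferation genes 13 had a ratio above 0, beside 50.4% of all genes, with a median of 0.56 that was 1.47 without granulosa library 16 and 5.79 by medians over cells. Without the 8 libraries 6 of the 15 were on the other side of 0. Bub1, a spindle checkpoint kinase, had 2.60, which was 4.14 without granulosa library 16, and it had 5 or more reads in 2 of 13 granulosa libraries and in all 16 oocytes. Aurkb, a mitotic kinase, had 2.09, which was 1.95 without granulosa library 8 and 3.18 without granulosa library 16.

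**Figure D5:**
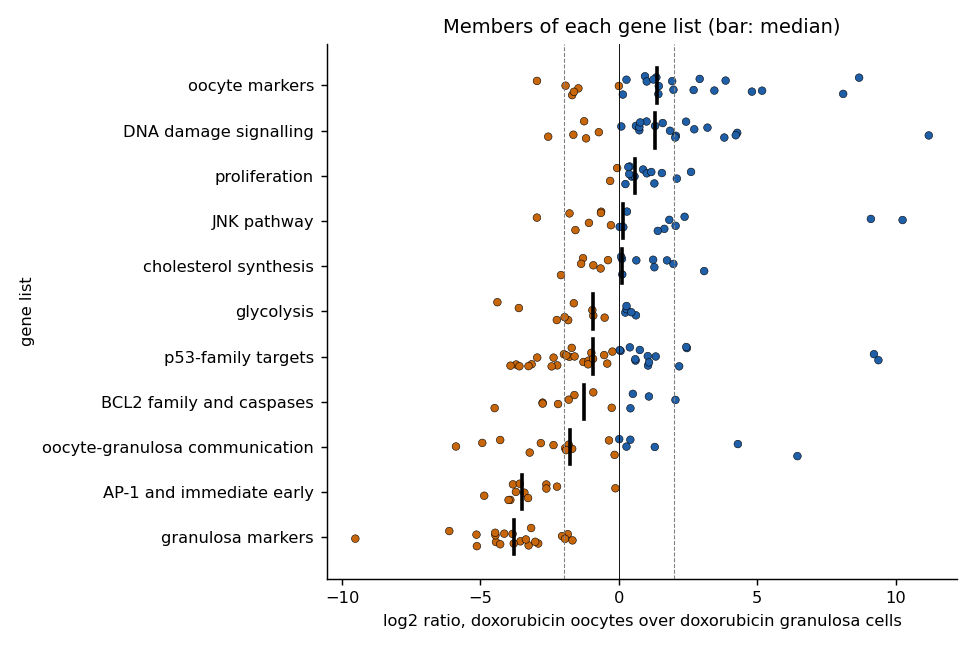
Log2 ratio of doxorubicin oocytes over doxorubicin granulosa cells for the members of each gene list that reached 5 CPM in oocytes or granulosa cells, with 1 point per gene, a bar at the list's median and dashed lines at 4-fold. Medians run from 1.39 for oocyte markers and 1.30 for DNA damage signalling to -3.50 for AP-1 and immediate early genes and -3.80 for granulosa markers.

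The genes whose contrast differed most from controls were set by very low levels on the granulosa side. Tex19.1, a germ cell gene, had 72.4 CPM in doxorubicin oocytes and 41.3 CPM in doxorubicin granulosa cells, a log2 ratio of 0.81. In controls the ratio was 12.28 (10.73 to 14.56), since control granulosa cells held 3 reads. It had 5 or more reads in 4 of 13 doxorubicin granulosa libraries, and without the 8 libraries their level was 0.0173 CPM. Pkib, Osgin1, Snapc4, Pcx and Dusp14 shared this pattern, with contrasts lower by 10.22 to 11.18 than in controls 4 to 6 doxorubicin granulosa libraries with 5 or more reads and 3 to 7 reads over all control granulosa cells. Pcx had a ratio of 2.09 that was 1.95 without granulosa library 8. In the other direction Dgat2, an enzyme of triglyceride synthesis, was measured at 42.1, 114 and 192 CPM in doxorubicin oocytes and at no more than 0.312 CPM in any doxorubicin granulosa library, a ratio of 10.92 against 1.52 in controls, where 4 of 16 granulosa cells had 5 or more reads. Rrp12, Mageb4, Kif14, Tmem62 and Hip1 followed, and the control value of Mageb4 rested on control granulosa cell 4, the 1 cell there with 5 or more reads.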

How the data were processed

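Libraries of single cells were made from full-length cDNA, per the labels. What the authors deposited is estimated counts, not normalized (23927 gene rows, 61 cells, 34.0% of nonzero values not whole). Per the submitters' processing notes, Partek, Bowtie2, HISAT2, DESeq2 and mm10 were used, with no role or version given. The counter, annotation and filters are not given in the sources used here. Gene symbols turned into dates (22 rows, 0.144% of counts) stayed in the totals and are not named. The raw data of doxorubicin oocyte 4 are stated to be lost, and its column was kept. No doublets were called. Some list members and damage-induced genes are counted but not reported here by name.

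Counts were rounded, summed per group and divided by the group total to give CPM. Log2 ratios have exact conditional binomial (Clopper-Pearson) intervals, CPM exact Poisson intervals. Genes needed 5 CPM in either group. No 2 libraries agreed within sampling noise. Members and lists were chosen with earlier results of these data known. Of 254 list genes, 3 (Adgre1, Tyrobp and Cyp11a1) were not matched. Named genes were list members, up to 10 per direction with at least 50 CPM and 5 reads in at least 75% of the higher group's cells ranked by the smallest ratio over leaving out each cell, damage-induced genes (up to 8 a class), and up to 6 per direction with the largest change of the contrast. The calculation was tested on simulated data. Alternatives were equal-weight means, medians of log2(CPM + 1), edgeR TMM and DESeq2 size factors, no filter or 20 CPM, libraries left out by marker sums, and each cell left out. Python 3.11.15, numpy 2.4.6, pandas 2.3.3, scipy 1.17.1, matplotlib 3.10.9, R 4.3.3, edgeR 4.0.16 and DESeq2 1.42.0 were used.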

Additional observations from a re-analysis of the deposited data

Results flagged for a closer look

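In the genes below the log2 ratio of oocytes over granulosa cells lay on opposite sides of 0 after doxorubicin and in controls, and kept each sign when any 1 cell was left out. The difference between the contrasts was not tested.

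Among maternal genes the ratio was -1.69 for Gdf9 against 3.82 in controls, -1.93 for Khdc3 against 1.86, -1.46 for Zar1 against 2.50 and -1.63 for H1f8 against 2.62. Without the 8 granulosa libraries with more oocyte than granulosa markers these 4 had doxorubicin ratios of 1.57, 1.15, 1.25 and 0.79. That is the side of the control ratios, from which no library was left out. These 4 are among the oocyte markers by which the 8 libraries were chosen. The choice therefore sets part of the values, and nothing is drawn from them.

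Among p53-family targets the ratio was -3.15 for Cdkn1a against 0.21, -1.70 for Ccng1 against 0.23, -0.53 for Trp53inp1 against 2.67, -1.0 for Bax against 0.25 and -2.43 for Polk against 1.66. Without the 8 libraries Cdkn1a (-2.33), Ccng1 (-1.30), Bax (-0.96) and Polk (-1.71) stayed below 0 and Trp53inp1 (0.19) did not. The control ratios here keep the control libraries against their label. With those left out, the control ratio of Cdkn1a was below 0 as well, as given above, so its sides then did not differ. The control ratio of Polk rested on a single granulosa cell and ran from 1.44 to 9.88 with each cell left out.

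Of the JNK kinases, Map2k7, which activates JNK, had -1.57 against 1.37. Of the death genes, Casp9, the caspase of the apoptosome, had -1.81 against 0.15, Casp2 had 1.08 against -0.47 and Bcl2l11 had 2.04 against -1.16. Without the 8 libraries Casp2 had -0.22.

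Among genes called damage-induced in oocytes, Pisd-ps1 had 3.06 against -2.66, Ly6g6e 0.59 against -2.57, Ttc23 1.28 against -1.36 and S100a16 0.67 against -4.14. Without the 8 libraries Ttc23 had 0.06. The unnamed genes Gm38025 (-2.91 against 4.97) and Gm44087 (-2.26 against 5.18) were called damage-induced in granulosa cells. Without the 8 libraries they had -0.05 and 0.44.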

How the results depend on the processing

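No paired analysis was possible because the columns carry no label that ties an oocyte to a granulosa cell, and no result comes from a test. Against 1779 genes 4-fold higher in oocytes and 2056 in granulosa cells, medians over cells gave 5461 and 618, no filter 6013 and 3746, and a minimum of 20 CPM 1046 and 1297. Leaving out each cell gave 1744 to 1943 and 1980 to 2134. The oocyte marker median of 1.39 was 1.30 by equal-weight means, 2.07 by medians, 1.37 with TMM, 1.42 with DESeq2 factors, 1.42 from 20 CPM, 3.70 without the 8 libraries against their label, 1.40 with the oocytes low in granulosa markers and 3.86 with both, and 1.26 to 1.68 with each cell left out. In the same order the granulosa marker median of -3.80 was -3.55, -1.60, -3.82 and -3.77, then -3.56 with no filter, -3.81 without the 8 libraries, -5.93 and -6.33 (-4.07 to -3.39 with each cell left out). That of p53 targets, -0.93, was -0.82, 0.62, -0.95, -0.90, -1.05 from 20 CPM, -0.78, -1.02 and -0.70 (-1.05 to -0.52). The change of the oocyte marker contrast, -2.28, was -2.24, -2.75, -2.36, -2.29, -2.30 with no filter, -2.28 from 20 CPM, -1.15, -2.14 and -1.01 (-2.41 to -2.07). For -1.15, -2.14 and -1.01 the same rules also left out controls, namely 6 granulosa libraries, 6 oocytes and both. Among list medians and named genes past 4-fold, signs turned by medians over cells for BCL2 family and caspases (0.18), stroma markers (0.06), Oosp1 (0.85), Plk3 (2.79), Fdxr (1.07), Bcl2 (0.65) and Bok (0.62), and from 20 CPM for the JNK pathway (-0.64). Among these they turned without the 8 libraries for cholesterol synthesis (-0.26), Oosp1 (2.71) and Gm44087 (0.44), and with both kinds of library left out for cholesterol synthesis (-0.33), Oosp1 (3.05), Gm38025 (0.13) and Gm44087 (0.81). Cholesterol synthesis lay between -0.02 and 0.51 with each cell left out. The cause was not tested. Of 114 named genes past 4-fold, 107 had the same sign and 78 stayed past 4-fold under every alternative run. Some of the 114 were named by rules that left out each cell, so the choice sets part of these counts. At these depths 3 reads over the doxorubicin granulosa group is 0.0210 CPM, and a gene below that was not detectable.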

Other observations

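The 24 genes in which every doxorubicin granulosa library was above every doxorubicin oocyte, in whichever library the oocyte markers stood high, included several that the lists above do not hold and that were chosen here after their values were seen. Mgst1, a microsomal glutathione transferase, had 13.2 CPM in oocytes and 436 CPM in granulosa cells, a log2 ratio of -5.05 against -5.11 in controls. Gstm1 and Gstm2, cytosolic glutathione transferases, had ratios of -5.14 and -5.09, but they are near-identical copies among which reads may be shared. Anxa2, a membrane-binding annexin, had 57.5 and 1584 CPM (-4.78), Tmsb4x, which binds actin monomers, 30.3 and 900 CPM (-4.89), and S100a11, a calcium-binding protein, 25.8 and 426 CPM (-4.05).

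Ccnd2, the D-type cyclin of granulosa cells, had 37.1 and 737 CPM, a ratio of -4.31 against -4.81 in controls. The chaperone gene Dnajb1 had 103 and 687 CPM (-2.74), Psme1, an activator of the proteasome, 21.6 and 304 CPM (-3.82), and Ifitm2, an interferon-induced membrane protein, 34.7 and 331 CPM (-3.26). Fth1, which stores iron, had 666 and 2359 CPM (-1.82).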
